A study of Oncorhynchus mykiss with 6 samples.

Results

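ZIC proteins are zinc finger transcription factors related to the GLI factors of hedgehog signalling. They act in the dorsal neural tube, in the neural crest and in the somites of vertebrate embryos. In medaka, zic1 and zic4 stay active in the dorsal derivatives of the somites into adult life, and fish of the Da mutant, which lose that activity, form a trunk whose dorsal side resembles the ventral side in shape and pigment. In vertebrates zic1 usually lies beside zic4 and zic2 beside zic5. Salmonids carry additional copies of many genes from a genome duplication of their own.

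The copies described here were chosen by symbol: the rows of the deposited gene table of rainbow trout (Oncorhynchus mykiss) named zic1, ZIC2, zic4 or zic5, without regard to case. They were 14 of 43862 rows, namely 2 rows of zic1 and 4 rows each of ZIC2, zic4 and zic5. A search for zic6 found 0 rows. Each copy is given below as its symbol with the table's gene number in brackets. Of the 14 copies, 13 had an NCBI gene number and 1, zic4 (MSTRG.23406), was an assembled locus outside the annotation.

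RNA was sequenced from dorsal skin of yellow mutant trout aged 1 day or 90 days, in 3 libraries for either age. Both ages carry the yellow phenotype, so the comparison is of ages and holds no other colour. The labels give no mutated gene, no sex and no statement that replicates are separate fish, so the errors and p-values measure the spread between these libraries, which may be technical. Total counts ran from 16157312 to 18960866 per library, and 1 FPKM (fragment counts scaled for gene length and library size) of a ZIC copy stood for 41.2 to 66.7 counts.

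Gene lists for other cell types were read in the same libraries. Dermal fibroblast genes summed to 2160 to 3110 FPKM at day 1 and 20300 to 21900 at day 90, and epidermis genes to 1960 to 2030 and 6660 to 8960. Transcript of both lists was thus found at both ages. Eye genes summed to 1840 to 2250 FPKM at day 1 and to 12.9 to 18.8 at day 90, where 36 of their 72 rows had no count. Neural genes summed to 1300 to 1480 and 320 to 340 FPKM, and 22 of 80 rows had no count at day 90. At that age 2 rows named STMN2, both with the product name stathmin-like, made up 48.1% and 25.1% of the neural sum, while ELAVL3 (110538429), a marker of neurons, was at 0.00333 ± 0.00577 FPKM. Next in that sum was gfap (100136168), a marker of glia, at 35.9 FPKM at day 1 and 19.8 ± 0.43 at day 90. The part of eye and neural tissue in the ZIC levels at day 1 was not tested. In tissue RNA, fewer cells of a type and less RNA per cell cannot be told apart.

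**Figure D1:**
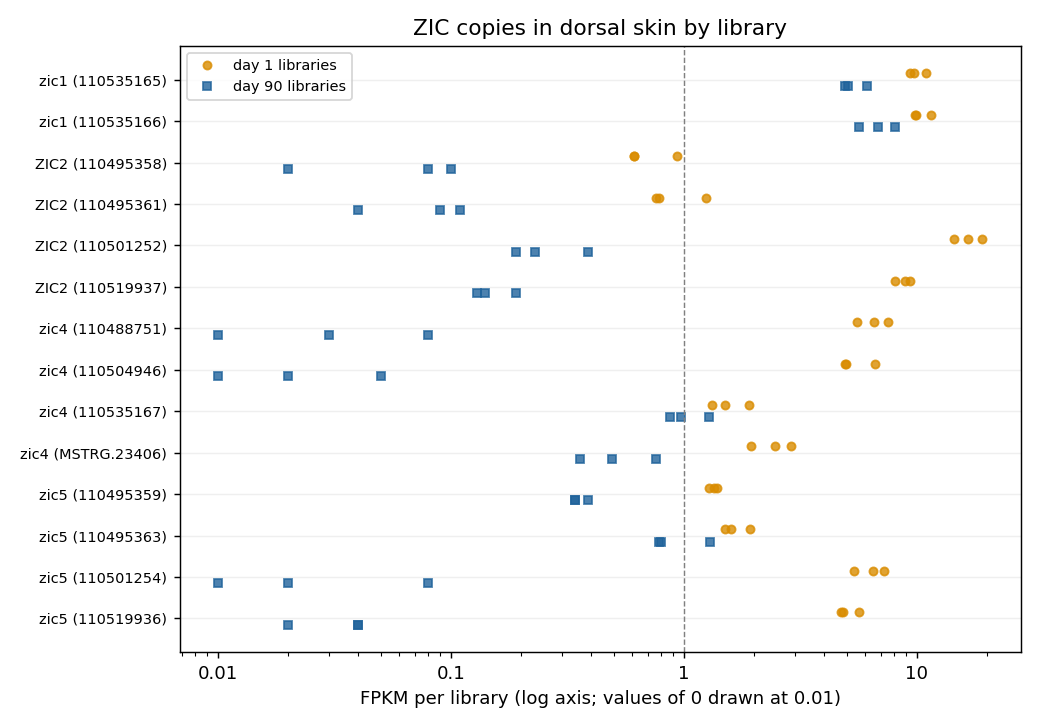
FPKM of the 14 ZIC copies in each library on a log axis, with circles for the 3 day 1 libraries and squares for the 3 day 90 libraries. The dashed line marks 1 FPKM, and values of 0 are drawn at 0.01. Both zic1 copies lie at 4.93 FPKM or above in every library, while the other copies above 4 FPKM in every day 1 library lie under 1 FPKM at day 90.

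A copy was called kept when its FPKM was at least 1 in all 3 day 90 libraries, and lost when it was at least 1 in all 3 day 1 libraries and under 1 in all 3 at day 90. Copies under 1 in all 6 libraries were called low and the rest mixed. This division uses the levels at both ages, so the difference between ages is given as a description with no test. By this rule 2 copies were kept, 8 were lost, 3 were mixed and 1 was low. The count of kept copies depends on the limit: it was 4 with 0.5 FPKM in place of 1, and 7 with 10 counts, among them ZIC2 (110501252), which had 19, 12 and 10 counts at day 90. Of the 12 copies that reached 1 FPKM in every day 1 library, 8 were lost, 2 kept and 2 mixed. Among all 27304 genes of the table that reached it, 17.8% were lost and 75.1% kept by the same rule.

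Both kept copies were zic1, a factor of the dorsal neural tube, the cerebellum and the dorsal somite. zic1 (110535166) had 9.81, 9.93 and 11.55 FPKM at day 1 and 6.83, 8.05 and 5.63 at day 90. zic1 (110535165) had 9.77, 9.33 and 10.96 FPKM at day 1 and 4.93, 6.10 and 5.07 at day 90. For both copies the lowest day 1 library was above the highest day 90 library in FPKM, and the level at day 90 was still 65.6% and 53.6% of that at day 1. Such shares were not particular to zic1. The mixed zic4 (110535167) and zic5 (110495363) held 66.0% and 57.2%, but from lower levels at day 1, 1.58 and 1.67 FPKM on average.

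In counts scaled by TMM, which evens out the bulk of the genes between libraries, the copies of zic1 stood closer between the ages. zic1 (110535166) had a scaled CPM (counts for a fixed library size) of 21.7, 22.1 and 27.0 at day 1 and 21.3, 23.4 and 15.9 at day 90, so its ages overlapped. zic1 (110535165) had 25.6, 24.8 and 30.6 at day 1 and 18.0, 20.9 and 17.0 at day 90, with no overlap. Their log2 fold changes of day 90 over day 1 were -0.22 ± 0.16 and -0.54 ± 0.13 (SE), against a median of -0.03 over all 29436 genes tested.

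The zic1 copies were nearly level with each other at day 1. Relative to zic1 (110535166), the FPKM of zic1 (110535165) was 0.996, 0.94 and 0.949 at day 1 and 0.722, 0.758 and 0.901 at day 90. Summed, the copies had 20.5 ± 1.8 FPKM at day 1 and 12.2 ± 1.8 FPKM at day 90 (SD, n = 3 libraries per age).

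The part of zic1 in the transcript of these copies was larger at day 90. It made up 24.8% to 27.7% of the summed FPKM of the 14 copies in the day 1 libraries and 74.0% to 79.1% in the day 90 libraries. The sum over the 14 copies was 70.61, 77.65 and 86.11 FPKM at day 1 and 14.87, 18.03 and 14.47 at day 90. They took 0.0210% to 0.0254% of a library's counts at day 1 and 0.00413% to 0.00510% at day 90.

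**Figure D2:**
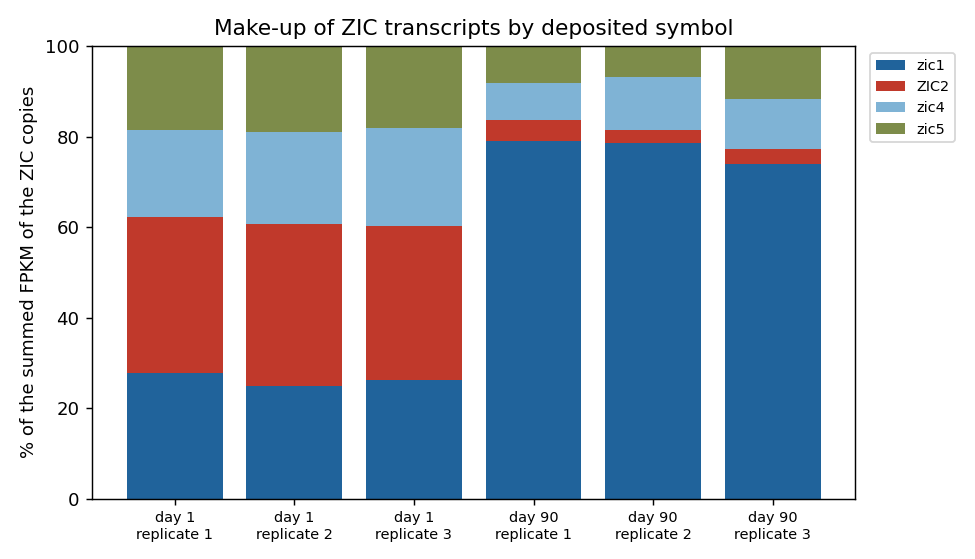
Share of each deposited symbol in the summed FPKM of the 14 ZIC copies, 1 bar per library, in % from 0 to 100. The zic1 segment is at most 27.7% in each day 1 bar and at least 74.0% in each day 90 bar, while ZIC2 shrinks from 34.8% on average to 3.65%.

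The 4 rows with the symbol zic4, a factor that in mammals works beside zic1 in the cerebellum, divided in their fate. They are grouped by deposited symbol and product name alone, as no sequences were compared. zic4 (110535167) had 1.32, 1.51 and 1.90 FPKM at day 1 and 0.87, 1.28 and 0.97 at day 90. It was the copy nearest to being kept, with 66.0% of its day 1 level left, a log2 fold change of -0.23 ± 0.23 and overlapping ages in TMM-scaled counts. zic4 (MSTRG.23406) had 1.94, 2.88 and 2.47 FPKM at day 1 and 0.36, 0.76 and 0.49 at day 90, and of the lost copies it came nearest to the limit of 1 FPKM.

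The other rows named zic4 were nearly silent at day 90. Neither lay next to a zic1 copy in the reference gene order, and whether they are true zic4 copies was not tested. zic4 (110488751) had 5.53, 6.54 and 7.56 FPKM at day 1 and 0, 0.03 and 0.08 at day 90, from 4 counts in all. zic4 (110504946) had 4.91, 4.99 and 6.64 FPKM and then 0, 0.02 and 0.05, from 3 counts. Its normalized counts were lower at day 90 by a ratio of 185 (exact 95% binomial interval 63.1 to 899, counting error only).

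ZIC2, which in mice acts in forebrain formation and in whether retinal axons cross the midline or not, had 2 abundant and 2 weak copies. ZIC2 (110501252) had 14.50, 16.62 and 19.13 FPKM at day 1 and 0.39, 0.23 and 0.19 at day 90. ZIC2 (110519937) had 8.06, 9.32 and 8.87 FPKM and then 0.14, 0.19 and 0.13. Of their day 1 levels 1.61% and 1.75% were left, and their log2 fold changes were -5.68 ± 0.21 and -5.45 ± 0.19.

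The weak ZIC2 copies did not pass the filter for testing, which asked for at least 1 FPKM in at least 3 of the 6 libraries. ZIC2 (110495361) had 0.78, 1.24 and 0.76 FPKM at day 1 and 0.04, 0.11 and 0.09 at day 90. ZIC2 (110495358) had 0.94, 0.61 and 0.61 FPKM and then 0.10, 0.02 and 0.08. In both copies each day 1 library was above each day 90 library.

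zic5, which takes part in neural crest formation in Xenopus, had 2 copies that were nearly silent at day 90 and 2 that were not. zic5 (110501254) had 5.39, 6.52 and 7.21 FPKM at day 1 and 0, 0.08 and 0.02 at day 90. zic5 (110519936) had 4.71, 4.85 and 5.67 FPKM and then 0.04, 0.02 and 0.04. These copies had 5 and 6 counts in all at day 90, and log2 fold changes of -7.15 ± 0.42 and -6.82 ± 0.29.

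The zic5 copies with lower levels at day 1 held more of them. zic5 (110495363) had 1.60, 1.92 and 1.5 FPKM at day 1 and 0.78, 0.80 and 1.29 at day 90, and was mixed because replicate 3 passed 1 FPKM. Its log2 fold change was -0.44 ± 0.24, and its ages overlapped in TMM-scaled counts. zic5 (110495359) had 1.35, 1.39 and 1.28 FPKM and then 0.39, 0.34 and 0.34, a log2 fold change of -1.49 ± 0.22.

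The order of levels changed between the ages. At day 1 ZIC2 (110501252) led, with its lowest library above the highest of every other copy, followed by both zic1 copies, which overlapped. Then came ZIC2 (110519937), and below it zic4 (110488751), zic5 (110501254), zic4 (110504946) and zic5 (110519936), each overlapping the next. zic4 (MSTRG.23406) was lower, and the remaining copies stayed under 2 FPKM. At day 90 the zic1 copies led and overlapped each other, and their lowest library, at 4.93 FPKM, was above the highest library of every other copy, at 1.29 FPKM. Next at day 90 were zic4 (110535167) and zic5 (110495363), which overlapped, and then zic4 (MSTRG.23406), which was below both.

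In FPKM the ages did not overlap for any of the 14 copies, all being lower at day 90, which held for 52.9% of all tested genes. In TMM-scaled counts 11 of the 14 did not overlap, all being lower at day 90, which held for 38.3% of all tested genes. Unlike these shares, the 14 include the 2 weak ZIC2 copies that were not tested, and neither of those overlapped by either measure. In the edgeR fit, 9 of the 12 tested copies passed the adjusted p threshold of 0.05 as lower, against 35.4% of all tested genes (67.9% in either direction), and 0 as higher, also at an unadjusted p under 0.05 and with DESeq2 and limma. The copies not past the threshold were zic1 (110535166), zic4 (110535167) and zic5 (110495363), of which zic5 (110495363) passed without day 90 replicate 3. Since this contrast defined the kept and lost copies, nothing is read from these counts.

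Scaling moves all these values together. Over all tested genes the median log2 fold change was -0.03 under TMM, -0.43 under library size alone and -1.64 when counts were scaled to the epidermis genes. The share of calls that were higher at day 90 was 47.9%, 28.5% and 5.62% under these scalings, and 28.9% with limma on log2(FPKM + 1). Relative to that median, zic1 (110535166) stood at -0.19, -0.19 and -0.18 and zic1 (110535165) at -0.50, -0.50 and -0.51. ZIC2 (110519937) stood at -5.41 under all 3. With library size alone, with the epidermis scaling and with limma on FPKM, all 12 tested copies passed as lower, the zic1 copies included. Of all 29436 tested genes, 14887 passed as lower with library size alone and 25171 with the epidermis scaling. With limma on log2(FPKM + 1) 14949 did so.

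**Figure D3:**
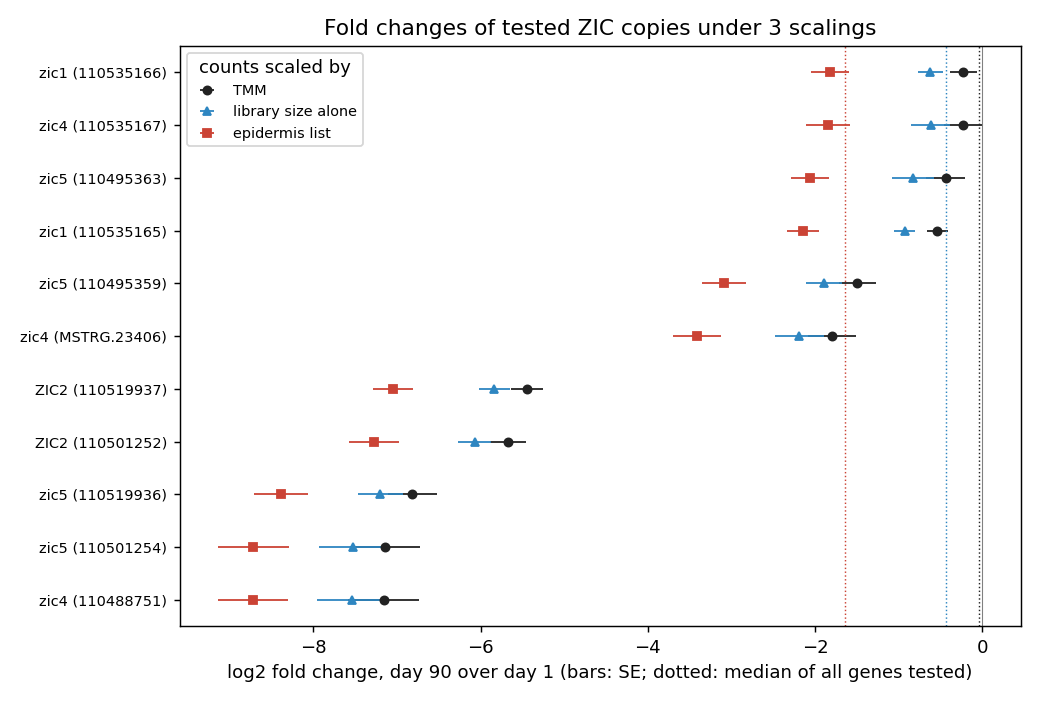
Log2 fold changes of day 90 over day 1 (points, with SE bars) for the 11 tested ZIC copies with more than 3 counts at day 90, under TMM, library size alone and scaling to the epidermis list. Dotted lines mark the median of all tested genes under each scaling. The zic1 copies, zic4 (110535167) and zic5 (110495363) lie within 0.51 of that median under each scaling, and the copies at the bottom lie more than 4 below it.

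Most of the copies lay in pairs in the genome. In the RefSeq gene order of assembly USDA_OmykA_1.1, used for names and order alone (for the files, a build was not given in the sources used here), 13 numbered copies lay at 8 places. At 5 of them a pair of the copies described here were next to each other among protein-coding genes. zic1 (110535165) lay beside a gene named zic4 under another number, which had no row in the deposited gene table. The neighbours of zic4 (110488751) and zic4 (110504946) were not analysed here. In that gene table only 2 of the 13 carried a zic symbol, the rest having a number alone.

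Where zic1 (110535166) lay beside zic4 (110535167), both neighbours held a like share of their day 1 level, 65.6% and 66.0%. The ratio of zic1 to zic4 FPKM was 7.43, 6.58 and 6.08 at day 1 and 7.85, 6.29 and 5.8 at day 90. The ratios of the ages overlapped.

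ZIC2 lay beside zic5 at 4 places, and these divided in a like manner. At 2 places both genes were abundant at day 1 and both were lost: ZIC2 (110501252) with zic5 (110501254) summed to 23.1 ± 3.2 and 0.303 ± 0.09 FPKM, and ZIC2 (110519937) with zic5 (110519936) to 13.8 ± 0.93 and 0.187 ± 0.021 FPKM. At the other two places both genes were weak at day 1. There zic5 (110495363) and zic5 (110495359) held 57.2% and 26.6% of their level, and their neighbours ZIC2 (110495358) and ZIC2 (110495361) held 9.26% and 8.63%.

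Within the pairs the remaining share was thus not always alike. At the abundant ZIC2 and zic5 places the zic5 share was the smaller one, at 0.523% and 0.657% against 1.61% and 1.75% for ZIC2. At the weak places the zic5 share was the larger one. Reads per copy at day 90 were few, and how reads that match more than 1 copy were counted was not given in the sources used here, so levels of near-identical copies are uncertain.

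**Figure D4:**
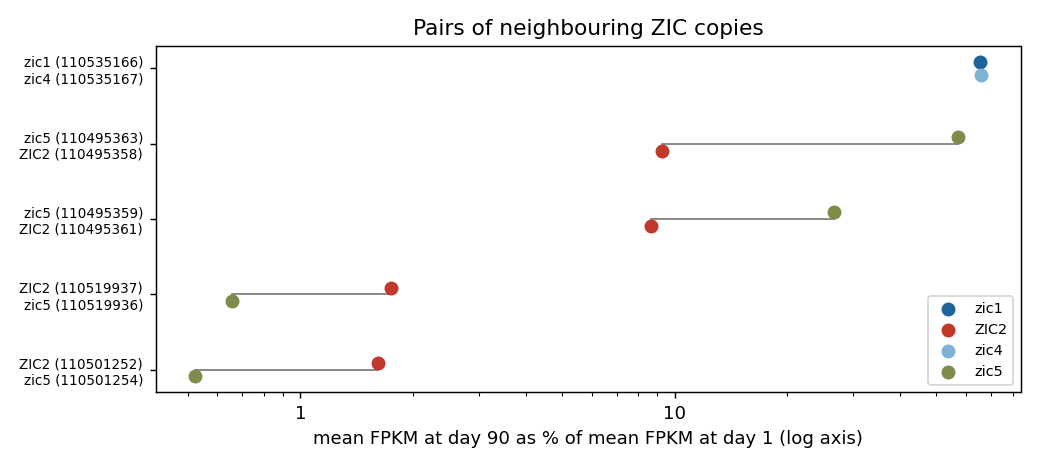
Mean FPKM at day 90 as % of mean FPKM at day 1, on a log axis, for the 5 pairs of ZIC copies that are next to each other in the reference gene order. Each line joins the copies of a pair, drawn slightly apart in height. The zic1 and zic4 pair lies at 65.6% and 66.0%, the weak zic5 and ZIC2 pairs between 8.63% and 57.2%, and the abundant ZIC2 and zic5 pairs at 1.75% or less.

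The nearest other protein-coding gene of the deposited table was read on each side of the 6 places where ZIC genes lay in such pairs, a choice made after the ZIC values were seen. These were 12 genes, of which 9 were tested. edgeR called 3 of them lower and 2 higher, and 4 did not pass, against 35.4% lower and 32.5% higher among all genes. Distances to the ZIC copies were not used.

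Near the kept zic1 copies 2 of the 3 tested genes fell, both on the zic4 side of their pair. PLSCR1 (110535168), beside the pair of zic1 and zic4, fell from 2.62 ± 0.24 to 0.113 ± 0.067 FPKM (on the log2 scale, -4.15 ± 0.37, edgeR adjusted p = 8.71e-06). On the other side Nktr (110535160) was at 2.90 ± 0.097 and 1.93 ± 0.55 FPKM (on the log2 scale, -0.22 ± 0.17, edgeR adjusted p = 0.273). Nktr passed as lower with library size alone (-0.61, adjusted p = 0.0222) and without day 90 replicate 3 (-0.44, adjusted p = 0.0294). It also did so with limma on log2(FPKM + 1) (-0.43, adjusted p = 0.0253) and with a pseudocount of 0.1 (-0.60, adjusted p = 0.0326). With the epidermis scaling it passed as lower at -1.86, where the median of all genes was -1.64. PLOD2 (110490878), for an enzyme that modifies lysines of collagen, fell from 4.27 ± 1.6 to 0.663 ± 0.22 FPKM. It lay beyond the zic4 gene beside zic1 (110535165), the one without a row in the deposited gene table. AGTR1 (110490877), on the zic1 side of that pair, was not tested.

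Beside the abundant ZIC2 and zic5 copies, all lost, none of the 3 tested genes passed with TMM. Gpr18 (110501248), beside zic5 (110501254) and ZIC2 (110501252), was under the filter and not tested. It had 0.513 ± 0.08 FPKM at day 1 and 1.25 ± 0.3 at day 90, from 87 and 200 counts. TMTC4 (110501255) was at 6.79 ± 0.5 and 6.31 ± 0.77 FPKM (on the log2 scale, 0.21 ± 0.11, edgeR adjusted p = 0.115). Clybl (110519938) was at 3.12 ± 0.37 and 2.97 ± 0.22 FPKM (on the log2 scale, 0.31 ± 0.15, edgeR adjusted p = 0.0945), and passed as higher without day 1 replicate 3 (0.44, adjusted p = 0.032). Gpatch3 (110519935) was at 3.13 ± 0.44 and 2.24 ± 0.25 FPKM (on the log2 scale, -0.11 ± 0.19, edgeR adjusted p = 0.639), and passed as lower with library size alone (-0.50, adjusted p = 0.0488) and with limma on log2(FPKM + 1) (-0.35, adjusted p = 0.0285). TMTC4 and Clybl were below 0 with library size alone, at -0.185 and -0.08. With the epidermis scaling all 3 passed as lower, at -1.40, -1.30 and -1.71, where the median of all genes was -1.64.

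The higher calls were TM9SF2 (110496963) and Pcca (110495360), on either side of zic5 (110495363) and ZIC2 (110495358). The remaining lower call was marchf4 (110496961), beside zic5 (110495359) and ZIC2 (110495361), at 1.82 ± 0.24 and 0.00667 ± 0.012 FPKM. For TM9SF2 and Pcca the log2 fold changes were 0.66 ± 0.15 (edgeR adjusted p = 0.00335) and 0.63 ± 0.12 (edgeR adjusted p = 0.000914), and -0.95 and -0.97 with the epidermis scaling. With library size alone both missed the threshold (0.26, adjusted p = 0.191, and 0.24, adjusted p = 0.109), as they did with limma on log2(FPKM + 1) (adjusted p = 0.15 and 0.0895).

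Within day 1, replicate 3 was the highest library in FPKM for 8 of the 14 ZIC copies, replicate 2 for 5 and replicate 1 for 1. The summed neural genes were also highest in replicate 3, at 1480 FPKM against 1340 and 1300, and so were the roof plate genes, at 68.9 against 59.2 and 57.9. Skeletal muscle genes were highest there too, at 28900 FPKM against 23100 and 23900, and dermomyotome genes, at 141 against 135 and 137. Epidermis genes were also highest there, at 2030 FPKM against 1960 and 2000. Dermal fibroblast genes were lowest there, at 2160 FPKM against 3110 and 2830. So were neural plate border and neural crest genes, at 214 against 239 and 226, and the GLI and GLIS, hedgehog and BMP lists. Eye genes were highest in replicate 1, at 2250 FPKM against 1840 in either other library. The part of these tissues in the spread of the ZIC copies was not tested.

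The lists for the tissues and pathways in which ZIC factors act show what else moved between the ages, where 35.4% of all tested genes were lower, 32.5% higher and the median log2 fold change was -0.03. Roof plate and dorsal neural tube genes were lower in 11 of 14 tested and higher in 0, also at an unadjusted p under 0.05 and with DESeq2 and limma, and their median log2 fold change was -5.11. BARHL2 (110524596), a homeobox factor of dorsal neurons, went from 5.53 ± 1.1 to 0.01 ± 0.017 FPKM, from 555 counts to 1. OLIG3 (110501937) fell from 5.68 ± 1 to 0.0467 ± 0.057 FPKM (edgeR adjusted p = 2.5e-06), though its product name is oligodendrocyte transcription factor 2-like. Of 41 rows on this list, 11 had no count at day 90. The highest there was ATOH1 (110499017), with the product name neurogenin-1-like, at 3.6 FPKM at day 1 and 2.11 at day 90. LMX1B (110535967) was at 1.82 and 1.12 FPKM. wnt1 (110491973) was at 0.66 and 0.783 FPKM, under the filter, so it is in none of these counts of calls.

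Neural genes were lower in 60 of 66 tested and higher in 4, with a median of -5.58. Eye genes were lower in 56 of 58 and higher in 1, with a median of -9.54. The higher one was rpe65c (110524415), at 7.28 ± 2.9 and 9.59 ± 1.9 FPKM, which missed the threshold with library size alone (0.385, adjusted p = 0.268) and without day 90 replicate 2 (0.80, adjusted p = 0.0621) or 3 (0.62, adjusted p = 0.0987) and was lower with the epidermis scaling (-0.82). SYT1 (110490458), a calcium sensor of synaptic vesicles, fell from 6.82 ± 0.19 to 0.11 ± 0.01 FPKM (on the log2 scale, -5.50 ± 0.15, edgeR adjusted p = 2e-08). Of the 4 higher neural genes, NCAN (110509633), with the product name aggrecan core protein-like, rose from 1.81 ± 0.27 to 12.4 ± 0.56 FPKM. In the day 90 libraries the neural list summed to 320 to 340 FPKM, of which the 2 rows named STMN2 made up 48.1% and 25.1%. The zic1 copies summed there to 12.2 ± 1.8 FPKM and the 8 lost copies to 1.44 ± 0.2.

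Genes of the dermomyotome, the part of the somite that gives dermis and muscle, were lower in 19 of 33 tested and higher in 8, with a median of -0.74. PAX3 (110530949), which acts with zic1 at the neural plate border in Xenopus, had 2.57, 2.79 and 2.75 FPKM at day 1 and 0.08, 0.07 and 0.09 at day 90 (log2 fold change -4.64 ± 0.25, edgeR adjusted p = 3.8e-07). PAX3 (110508192) fell from 2.86 ± 0.34 to 0.07 ± 0.087 FPKM. MEOX2 (110496448), a homeobox factor of the somite, rose from 0.77 ± 0.15 to 2.04 ± 0.11 FPKM (on the log2 scale, 1.78 ± 0.24), though not past the threshold with the epidermis scaling (0.19, adjusted p = 0.555).

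A gene of the wnt11 family acts downstream of zic1 and zic4 in the dorsal somite of medaka. The wnt11 copies, named here after their values were seen, were 4, of which 3 were tested. wnt11 (110537457) had 6.23, 6.43 and 5.23 FPKM at day 1 and 8.54, 7.84 and 8.16 at day 90, and rose (by 0.85 ± 0.12 on the log2 scale, edgeR adjusted p = 0.00014), but was lower with the epidermis scaling (-0.75). wnt11 (110533665) fell from 2.61 ± 0.4 to 0.807 ± 0.032 FPKM (edgeR adjusted p = 9.1e-05). wnt11 (110533847) did not pass (edgeR adjusted p = 0.7; lower with the epidermis scaling, at -1.46), and wnt11 (110537276) was under the filter.

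Relatives of ZIC and the signals that act with them moved in both directions. Of 10 tested GLI and GLIS genes 4 were higher and 3 lower, with a median of 0.47. GLI3 (110489888), mainly a repressor of hedgehog targets, fell from 5.59 ± 0.54 to 2.05 ± 0.13 FPKM (on the log2 scale, -1.06 ± 0.11, edgeR adjusted p = 2.7e-05). GLI3 (110535015) fell from 3.25 ± 0.29 to 1.11 ± 0.064 FPKM. GLIS2 (118938427) rose from 2.45 ± 0.19 to 6.41 ± 1.1 FPKM (on the log2 scale, 1.76 ± 0.12), though not with the epidermis scaling (0.15, adjusted p = 0.315). That scaling gave 0 higher and 6 lower on this list, and 1498 higher and 25171 lower among all 29436 tested genes.

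Of 26 tested hedgehog genes 10 were higher and 8 lower, with a median of -0.15. shha (110489984), the ligand made by the floor plate and notochord, fell from 4.49 ± 0.44 to 0.153 ± 0.12 FPKM (on the log2 scale, -4.49 ± 0.37). HHIP (MSTRG.16434), which binds hedgehog ligands, rose from 3.27 ± 0.63 to 6.74 ± 1.3 FPKM (on the log2 scale, 1.43 ± 0.16), but stood at -0.19 with the epidermis scaling. The epidermis scaling gave 0 higher and 24 lower on this list, and 1498 higher and 25171 lower among all 29436 tested genes.

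Of 36 tested BMP genes 17 were higher and 11 lower, with a median of 0.23. ID2 (110529440), a BMP-responsive inhibitor of helix-loop-helix factors, rose from 9.37 ± 1.1 to 136 ± 9.2 FPKM (on the log2 scale, 4.25 ± 0.15, edgeR adjusted p = 4.1e-08). nog3 (110538563), an antagonist of BMP, fell from 1.52 ± 0.29 to 0.22 ± 0.24 FPKM. By contrast fsta (110523922), with the product name follistatin-A-like, rose from 2.85 ± 0.44 to 13.8 ± 2.3 FPKM (edgeR adjusted p = 6.9e-07). After ID2, the rows of this list with the most FPKM at day 90 were both named ID1. The mean of ID1 (110527919) went from 83.9 to 88.8 FPKM, and that of ID1 (110494548) from 58.5 to 36.9 FPKM. The epidermis scaling gave 6 higher and 28 lower, and 1498 higher and 25171 lower among all 29436 tested genes.

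The neural plate border and neural crest list had 12 higher and 11 lower among 31 tested, with a median of -0.12. SNAI1 (110527910), a repressor active in migrating cells, rose from 6.22 ± 0.8 to 19.2 ± 0.72 FPKM (on the log2 scale, 2.01 ± 0.12). PAX3 (110530949), with the smallest adjusted p on this list, fell (on the log2 scale, -4.64 ± 0.25, edgeR adjusted p = 3.8e-07). The epidermis scaling gave 2 higher and 22 lower, and 1498 higher and 25171 lower among all 29436 tested genes. Dermal fibroblast genes were higher in 43 of 52 tested and lower in 4 (median 2.55), and epidermis genes in 54 and 10 of 70 (median 1.70), while the epidermis scaling gave 27 and 26 of the latter. DPT (110524056), for the matrix protein dermatopontin, rose from 5.19 ± 0.83 to 117 ± 10 FPKM. Against the direction of the fibroblast list, COL5A1 (110487595), for a collagen chain, fell from 79.0 ± 25 to 6.15 ± 4.0 FPKM. Against that of the epidermis list, CLDN4 (110507725) fell from 11.4 ± 2.3 to 0.05 ± 0.087 FPKM.

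Among 61 tested skeletal muscle genes 37 were lower and 12 higher, with a median of -1.51. They summed to 23100 to 28900 FPKM at day 1 and to 11800, 3410 and 3190 in the day 90 libraries, so day 90 replicate 1 held more muscle transcript than the others. In that library zic1 (110535165) had its lowest day 90 value in FPKM, 4.93, but its middle one in TMM-scaled CPM, 18.0, and zic1 (110535166) its middle one in both. The part of muscle in the zic1 levels was not tested.

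**Figure D5:**
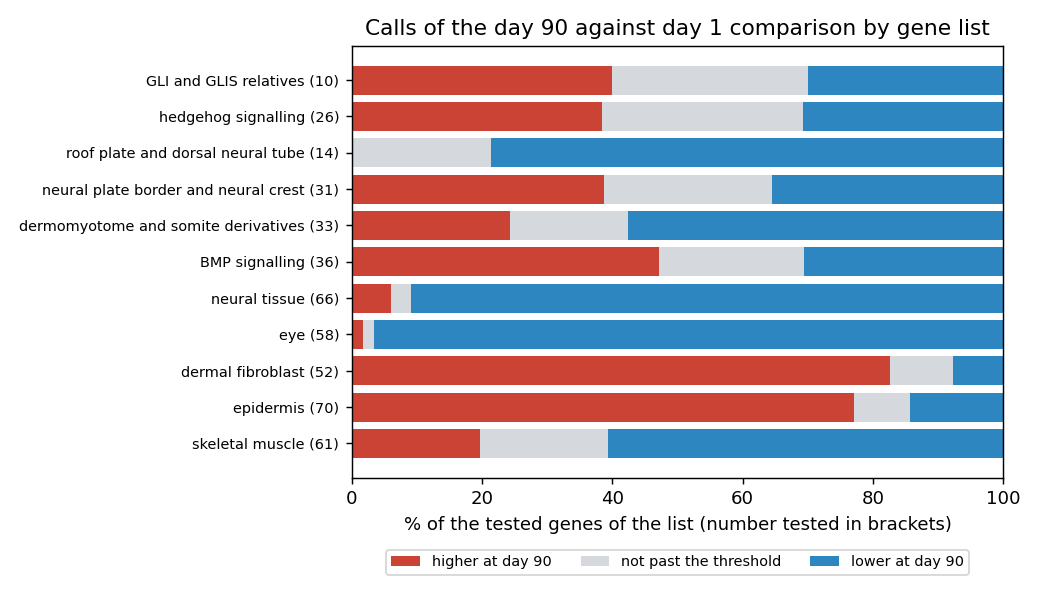
Share of the tested genes of each list that edgeR called higher or lower at day 90 or that did not pass, in %, with the number tested in brackets. Roof plate, neural and eye genes are lower in 11 of 14, 60 of 66 and 56 of 58, dermal fibroblast and epidermis genes mostly higher, and hedgehog, BMP, GLI and neural crest genes divided.

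The genes whose level and course were most like those of the kept zic1 copies summed were found by the smallest Euclidean distance over the 6 libraries on log2(FPKM + 1). They were eif2b2 (110522643), for a subunit of a translation initiation factor, at a distance of 0.23, uqcc3 (MSTRG.39669) at 0.245, Naa15 (110505005) at 0.291, Fscn1 (110518248) at 0.292 and Med9 (110486973) at 0.298. eif2b2 had 19.8 ± 2.1 FPKM at day 1 and 12.9 ± 1.1 at day 90.

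Most like the 8 lost copies summed, which had 52.8 ± 6.2 FPKM at day 1 and 1.44 ± 0.2 at day 90, was gap43 (110507546), of growing axons, at a distance of 0.625. It had 62.5 ± 6.5 and 1.76 ± 0.13 FPKM. FABP4 (110505566), for a fatty acid-binding protein, followed at 0.636, Sox11 (110505316), a transcription factor of developing neurons, at 0.728, ywhag-b (100136199) at 0.746 and TUBA1B (110494204) at 0.892. With only 2 ages, such likeness rests mainly on the levels at each age.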

How the data were processed

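RNA-seq of dorsal skin gave 6 libraries, grouped by age from the sample titles. Bowtie2 2.2.8 and TopHat2 2.1.1 are named, without a role, per the submitters' processing notes. Counting tool, build, strand and filters: not given in the sources used here. Per the file headers, the authors deposited whole-number counts and FPKM per gene and library, and also a log2 fold change, a p-value and an FDR, which were not used here. Gene order and names of neighbours came from RefSeq, and no sequences were used here.

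Genes with FPKM of at least 1 in at least 3 of 6 libraries were tested (29436 genes), 12 of the 14 ZIC copies among them. After TMM scaling, edgeR 4.0.16 in R 4.3.3 fitted age alone to the counts by quasi-likelihood, and p-values were adjusted after Benjamini and Hochberg with a threshold of 0.05. SE is the log2 fold change over the square root of F. Fits were also run on simulated data in which few genes changed, as many up as down. These data differ from that setting, so the simulation cannot decide between the scalings.

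The copies, lists and tests were chosen with earlier results of these data known. Some further rows that the choice by symbol could include are not reported here, and no sum or count of copies holds them. The 11 lists matched genes by symbol, with or without a trailing a, b or c. After the matches were seen, 4 rows named RHOA, RHOB or RHOC were taken out of the eye list. Named genes were the ZIC copies, up to 3 genes per list with the smallest adjusted p, the 1 called gene farthest from a list's median in the opposite direction, and the 5 nearest in pattern to the kept and to the lost copies. The rows named STMN2, gfap, ATOH1, LMX1B, wnt1 and ID1 were given for being among those with the most FPKM of their lists at day 90. Their values in the alternative fits are not given. Where the text says so, others were named later. Alternatives were DESeq2 1.42.0, limma 3.58.1, other scalings and filters, each library left out, and a replicate block.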

Additional observations from a re-analysis of the deposited data

How the results depend on the processing

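Every tested ZIC copy had a negative log2 fold change in each alternative fit. The median of all tested genes was also negative under each scaling. Among these fits the log2 fold change of zic1 (110535165) ran from -2.15 to -0.44 and that of zic1 (110535166) from -1.82 to -0.11. That of zic4 (110535167) ran from -1.84 to -0.045, and its SE in the main fit was 0.23. All 12 tested copies passed with library size alone, the epidermis scaling and both limma fits, 10 passed without day 90 replicate 3 (zic5 (110495363) added), and 9 in the remaining fits with 12 tested. With no filter 11 of 14 passed, and with a filter at 5 FPKM 5 of the 6 tested. Of all 29436 genes, library size alone called 14887 lower, the epidermis scaling 25171 and the limma fits 14949 and 14792. Without day 90 replicate 3 10714 were lower, and in the remaining fits of these genes 9434 to 10680. With no filter 14221 of 42269 genes were lower, and with the filter at 5 FPKM 5036 of 13460. Both zic1 copies were kept under each limit tried. With a limit of 0.5 FPKM 4 copies were kept and 9 lost, with 2 FPKM 2 and 6, with 10 counts 7 and 6, with the mean of each age 3 and 9, and with 1 library left out 2 and 8 to 9.

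The filter at 5 FPKM tested fewer genes, and 9742 of all genes and 251 list genes passed, against 19982 and 388; the ZIC copies below 0 were then 6. The counts higher and lower were then 1 and 1 for GLI and GLIS, 5 and 2 for hedgehog, 2 and 4 for dermomyotome and 7 and 6 for BMP genes. Lower were 1 roof plate, 5 neural crest, 36 neural and 2 fibroblast genes, and higher were 6 muscle and 0 eye genes. With no filter, more genes being tested, 7 GLI and GLIS genes were higher, and 14 hedgehog and 27 roof plate genes lower.

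Library size alone gave 5 GLI and GLIS genes lower, 5 hedgehog genes higher and 13 lower, and 0 eye genes higher. limma on log2(FPKM + 1) gave 5 GLI and GLIS genes lower, 5 hedgehog and 5 dermomyotome genes higher and 0 eye genes higher, and with a pseudocount of 0.1 these were 5, 4, 5 and 0. The epidermis scaling moved the median of all genes to -1.64 by its construction, and called 1498 of all 29436 tested genes higher and 25171 lower. It gave, higher and lower, 0 and 6 GLI and GLIS, 0 and 24 hedgehog, 2 and 22 neural crest, 0 and 29 dermomyotome, 6 and 28 BMP and 27 and 26 epidermis genes, with 0 eye and 4 muscle genes higher and 13 fibroblast genes lower. Leaving out 1 library gave 0 to 1 eye genes higher. That gene was rpe65c (110524415), which was not called without day 90 replicate 2 or 3. Clybl (110519938) passed without day 1 replicate 3 (0.44, adjusted p = 0.032) and Nktr (110535160) without day 90 replicate 3 (-0.44, adjusted p = 0.0294).

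Over 52 named genes that are no ZIC copies, 716 alternative values held direction and side of the threshold, 14 missed it, 10 newly passed it and 19 changed sign. With the epidermis scaling these were HHIP (MSTRG.16434) at -0.19, rpe65c (110524415) at -0.82, TMTC4 (110501255) at -1.40, Clybl (110519938) at -1.30, TM9SF2 (110496963) at -0.95, Pcca (110495360) at -0.97, wnt11 (110537457) at -0.75 and wnt11 (110533847) at -1.46. The rest were of genes past the threshold in neither fit. TMTC4, Clybl and wnt11 (110533847) were at -0.185, -0.08 and -0.247 with library size alone, at -0.096, -0.05 and -0.147 with limma on log2(FPKM + 1), and at -0.109, -0.063 and -0.258 with a pseudocount of 0.1. With 1 library left out wnt11 (110533847) ran from -0.263 to 0.367. TM9SF2 and Pcca missed the threshold with library size alone and both limma fits, where Gpatch3 (110519935) and Nktr (110535160) passed as lower. For the other counts and values that moved, the cause was not tested.

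Replicate numbers did not pair the libraries: the correlations of deviations between same-numbered libraries were -0.111, 0.003 and -0.159. A fit with the replicate number as a block called 18555 genes, 18471 of them also called without it, and the same 9 ZIC copies. No library correlated best with its own number. Depth limits the copies with few counts at day 90, whose remaining shares rest on 3 to 6 counts, and 3 libraries per age limit the rest.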
